A study of Sus scrofa with 8 samples.

Results

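Accessible chromatin at the genes of Wnt signalling outside the cell and at its surface was described in porcine muscle satellite cells from ATAC-seq peak lists. The set held every protein-coding gene whose symbol is WNT or FZD followed by a number, with LRP5, LRP6, SFRP1, SFRP2, SFRP4, DKK1, DKK2, DKK3, RSPO1, RSPO2, RSPO3 and AXIN2. This gave 41 genes, namely 19 WNT ligands, 10 FZD receptors, 2 co-receptors, 6 secreted antagonists, 3 R-spondins and AXIN2. The peaks of all 8 libraries were merged wherever they shared at least 1 bp, and each merged region was linked to the gene with the nearest end within 50 kb. Of 178498 merged regions, 114950 were linked to a protein-coding gene and 418 to a gene of the set. At the 50 kb limit, the farthest linked regions were at LRP5 (49922 bp, called in 4 libraries) and WNT7A (49452 bp, called in 1), and the nearest left out were at FZD7 (50861 bp, 3 libraries) and DKK2 (51168 bp, 3 libraries).

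WNT proteins are secreted lipid-modified ligands that bind Frizzled receptors, which the FZD genes encode, and the co-receptors LRP5 and LRP6. SFRP proteins bind WNT ligands outside the cell, DKK1 and DKK2 act on the LRP co-receptors, and R-spondins raise receptor levels at the surface through LGR receptors. Ligand binding stabilises beta-catenin, whose target AXIN2 encodes a scaffold of the complex that degrades beta-catenin. In muscle, canonical Wnt signalling is known for its part in myoblast differentiation and WNT7A for its part in satellite cell expansion.

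ATAC-seq marks open DNA by the cuts that a transposase makes in it. The series held 4 groups of 2 libraries each, labelled WT or CBP at 0 h, described as proliferation, and WT or CBP at 60 h, described as differentiation. The treatment protocol gives SGC-CBP30, an inhibitor of the CBP and p300 bromodomains, at 5 uM/ml, over 48 h for proliferating cells and 60 h for differentiating cells. No label says which libraries received it, so the groups are called by their labels. All 8 libraries are labelled as muscle satellite cells of the pig, grown in RPMI with serum, with C3H as the cell line, and the series text speaks of repeats in 3 groups. No label names separate animals or cultures, so p-values measure only how far these libraries lie apart, and that spread may be technical.

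The libraries held 82696 to 135528 peaks on chromosomes 1 to 18 and X, and 121757 or more at 0 h against 88871 or fewer at 60 h. Relative depth, read from the most common background level in each list, ran from 1.43 to 2.08 at 0 h and from 1 to 1.21 at 60 h. Depth and time therefore cannot be told apart. A region that is not called is one where no peak passed the authors' threshold, not one without signal. Among satellite cell markers, PAX7, MYOD1, MYF5, CDH15, DES and CXCR4 had a region within 1 kb of a gene end called in all 8 libraries, and MYOG, VCAM1 and ITGA7 had none. The endothelial, immune and fibro-adipogenic lists had 14 of 47, 6 of 31 and 18 of 57 regions called in all 8, against 22 of 112 for the satellite cell list, and the part of such cells in the results was not tested. In bulk libraries, fewer cells with an open region and less signal per cell cannot be told apart.

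Every gene of the set had at least 1 linked region, with a median of 9 and a range from 1 at SFRP4 and WNT8A to 22 at WNT7B. The median over all genes with a region was 5. Of the 418 regions, 172 lay inside the linked gene, 32 inside another protein-coding gene and 223 inside none, and a region that lay inside overlapping genes was counted for each. Of the set's regions, 121 (28.9%) were called in all 8 libraries, against 31.8% of all linked regions. WNT8A and RSPO3 had no such region, and the other 39 genes had at least 1. Within 1 kb of a gene end, 61 regions were found, and 32 of these (52.5%) were called in all 8, against 65.8% of all linked regions this close. WNT8A, WNT8B and FZD1 had no region within 1 kb of an end. The strand of the genes was not used here, so a gene end may be either the start or the end of the transcript.

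**Figure D1:**
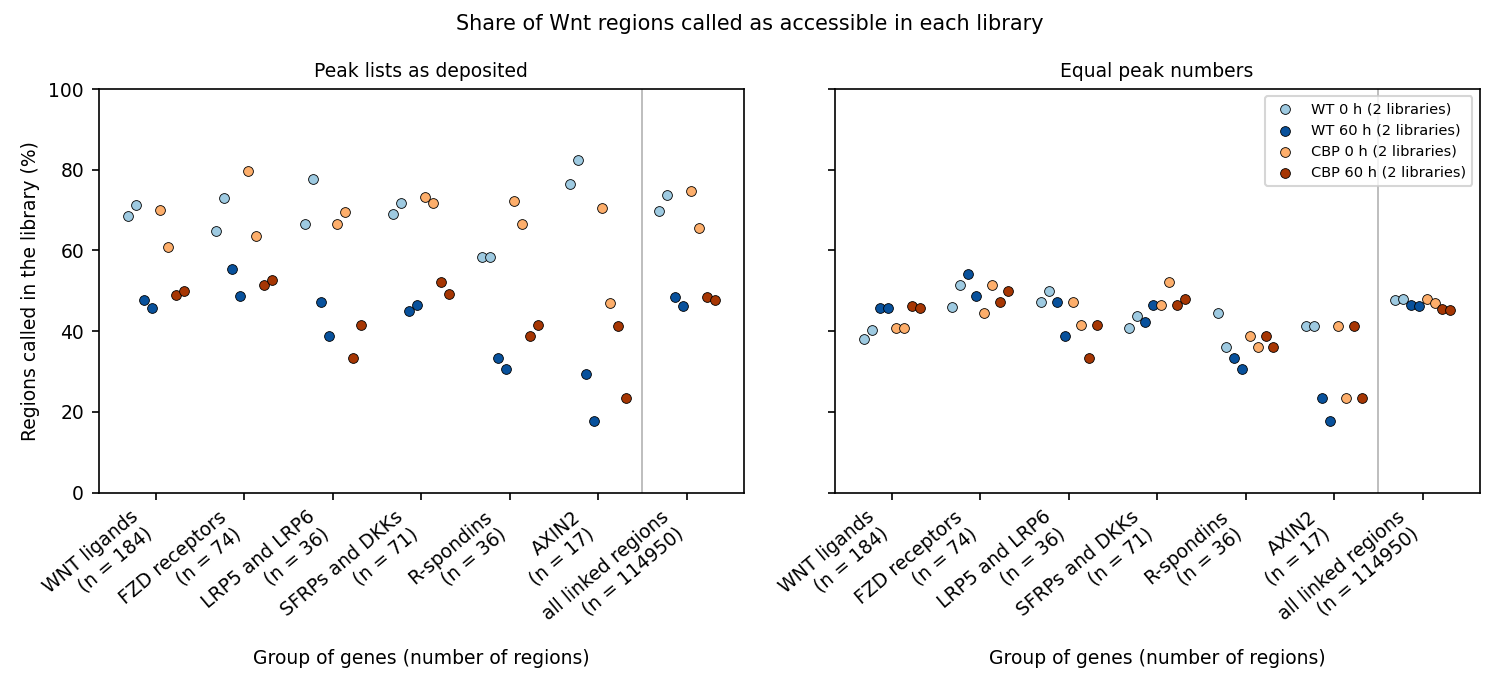
Share of linked regions called as peaks (vertical axis, %) in each of the 8 libraries, by group of genes, with the lists as deposited (left) and cut to 82696 peaks each (right). Each point is a library. With the lists as deposited, AXIN2 ran from 76.5% and 82.4% in WT 0 h to 29.4% and 17.6% in WT 60 h, while all linked regions ran from 69.8% and 73.8% to 48.4% and 46.2%.

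Between 0 h and 60 h, far more Wnt regions lost a call than gained a call under either label, and the shares were near those of all linked regions. A region was counted as opened when both libraries of the first-named group and neither of the second had a peak there, and as closed in the reverse case. In WT 60 h against WT 0 h, 4 regions opened (0.957%, against 0.575% of all linked regions) and 65 closed (15.6%, against 14.3%). In CBP 60 h against CBP 0 h, 4 opened (0.957%, against 1.36%) and 55 closed (13.2%, against 14.5%). When every list was cut to its strongest 82696 peaks, the WT counts were 22 opened (5.26%, against 2.62% of all linked regions) and 16 closed (3.83%, against 3.89%). The CBP counts were then 21 opened (5.02%, against 3.64%) and 22 closed (5.26%, against 5.57%), so the excess of closed regions was not seen at equal peak numbers. In WT, 45 of the 65 closed regions had a summit pileup (fragments stacked at the highest point of the peak) under 50% of the library median in both 0 h libraries (69.2%, against 68.1% of all linked regions that closed), and 2 were above the median in both (3.08%, against 2.08%). Leaving out a library relaxes the rule: without WT 0 h library 1 the closed count was 105, and without CBP 0 h library 2 it was 101. Over all linked regions these counts were 27427 and 29559, against 16434 and 16611 with all libraries. The opened count in WT was 12 without either 60 h library and 9 without 0 h library 2. In CBP it was 15 and 13 without 60 h library 1 and 2, and 13 and 7 without 0 h library 1 and 2.

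Over both labels, 20 Wnt regions were called in all 4 libraries at 0 h and in none at 60 h (4.78%, against 5.47% of all linked regions), and 0 in the reverse pattern (against 0.109%). These 20 are also the regions closed under both labels, which is 30.8% of those closed in WT and 36.4% of those closed in CBP, against 38.3% and 37.9% over all linked regions. At equal peak numbers, 7 regions were called at 0 h alone and 5 at 60 h alone. The shares of all linked regions above are for the lists as deposited. None is given here for equal peak numbers, so these 2 counts have no background beside them. Regions called in all 4 WT libraries and no CBP library numbered 2 (0.478%, against 0.231%), at WNT9A and WNT2B, and 0 had the reverse pattern (against 0.142%).

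**Figure D2:**
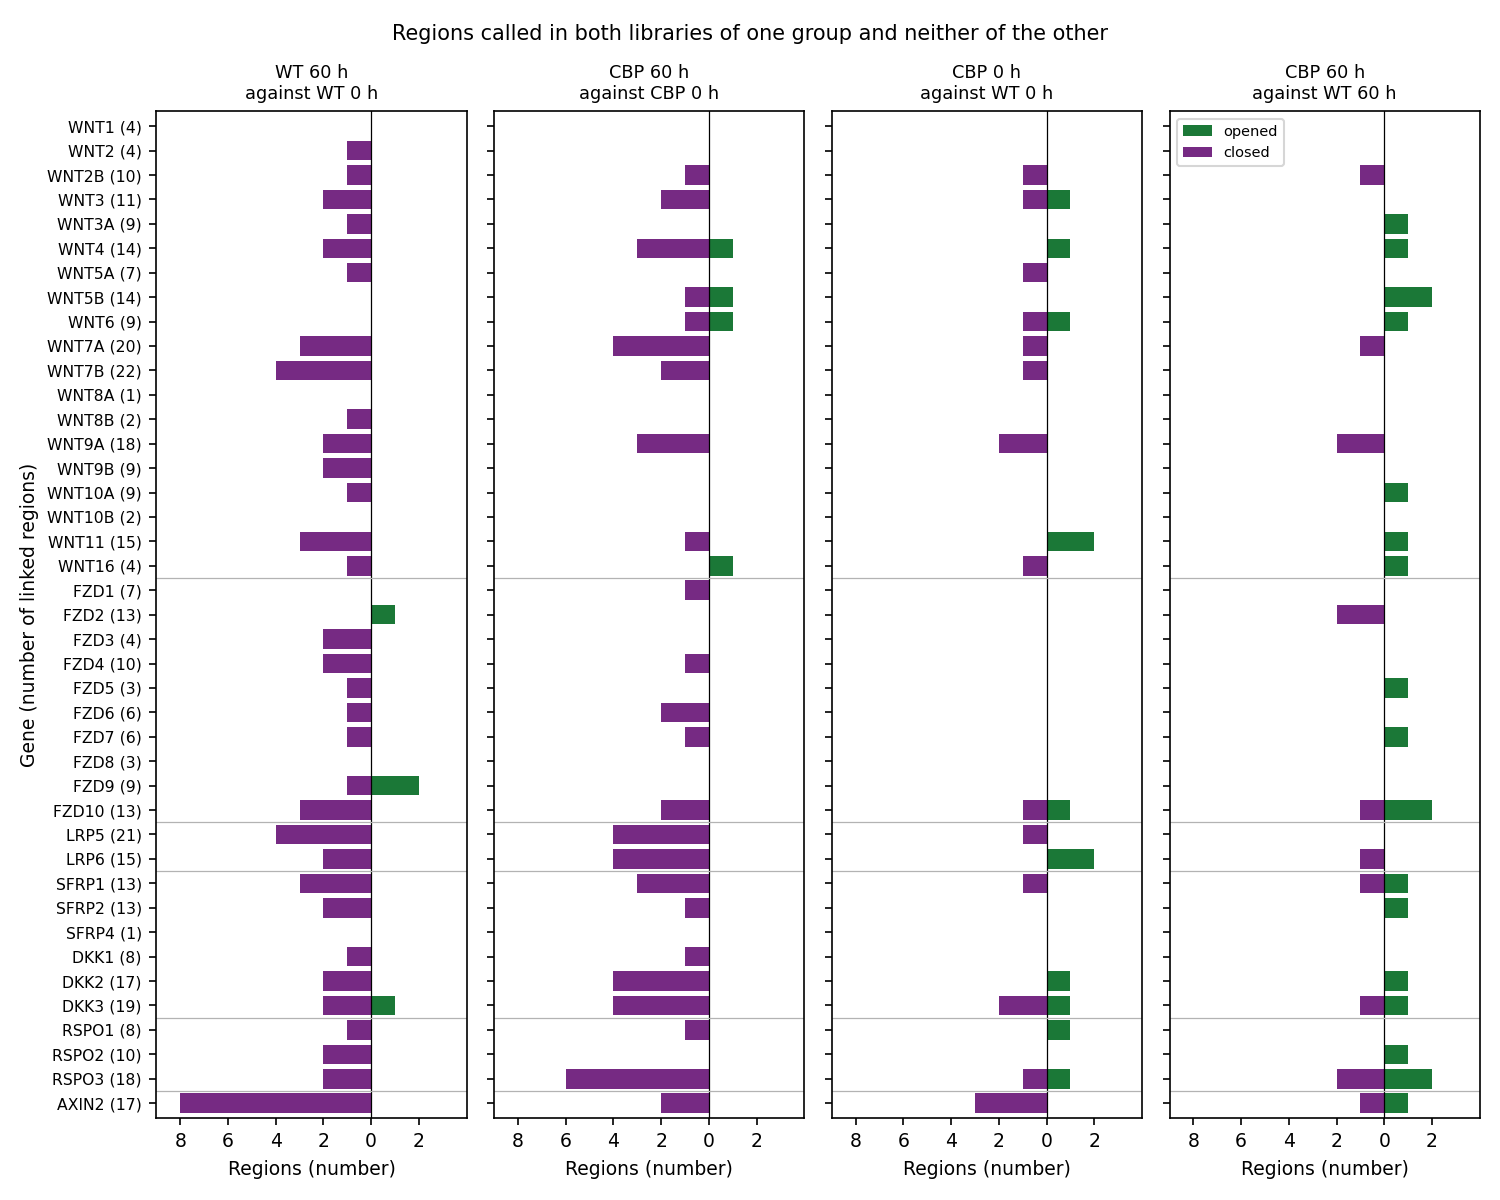
Number of regions that opened (green, right of 0) or closed (purple, left of 0) at each of the 41 genes (vertical axis, with the number of linked regions) in the 4 comparisons. AXIN2 has the longest bar, with 8 closed of 17 regions in WT 60 h against WT 0 h, and WNT1, WNT8A, WNT10B, FZD8 and SFRP4 have no bar.

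Between the labels, the counts went in both directions. At 0 h, 12 Wnt regions opened in CBP against WT (2.87%, against 2.23% of all linked regions) and 18 closed (4.31%, against 3.35%). At equal peak numbers these were 9 (2.15%, against 1.85%) and 4 (0.957%, against 2.35%). Of the 12 opened, 7 lay over 500 bp from the next region, against 1917 of the 2558 opened over all linked regions. At 60 h, 20 opened (4.78%, against 3.14%) and 13 closed (3.11%, against 3.17%). At equal peak numbers these were 19 (4.55%, against 2.77%) and 15 (3.59%, against 3.45%). At 60 h, more regions opened than closed in CBP at 13 genes (31.7%, against 13.4% of all genes with a region) and more closed than opened at 5 (12.2%, against 13.8%), while the members had more regions per gene than all genes. At 0 h, without WT library 1 or 2 the counts were 21 and 26 opened and 44 and 31 closed, without CBP library 1 they were 29 and 39, and without CBP library 2, 38 opened. At 60 h, without CBP library 1 or 2, 38 and 42 opened. Over all linked regions 8316 and 9175 then opened, against 3606 with all libraries. At 0 h, without WT library 1 or 2, 4425 and 5698 of all linked regions opened, against 2558, and 10315 and 8323 closed, against 3853. Without CBP library 2, 24 closed at 60 h. Without WT 60 h library 1, 31 opened and 29 closed, and without WT 60 h library 2, 30 closed.

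For the 121 Wnt regions called in all 8 libraries, the summit pileup was compared with limma across all 50575 such regions, with Benjamini-Hochberg adjustment over all of them. These regions were kept because they were called everywhere, so regions that lost their call are not among them. The library medians that the pileups below can be read against were 60 and 67 in WT 0 h, 35 and 30 in WT 60 h, 68 and 52 in CBP 0 h, and 32 and 31 in CBP 60 h. With each library centred on its median, 24 Wnt regions were higher in WT at 60 h (background 21.8%) and 11 lower (7.86%), and 33 were higher in CBP at 60 h (30.7%) and 17 lower (12.2%). CBP against WT gave 1 higher (0.158%) and 2 lower (1.34%) at 0 h, and 18 higher (11.7%) and 12 lower (10.3%) at 60 h. The 2 lower at 0 h were at WNT9A and FZD2 and did not pass under every scaling. The time change in CBP minus that in WT gave 2 higher (1.69%) and 1 lower (1.95%). The 35 calls in WT over time became 14 without WT 0 h library 1 and 22 without library 2, and the 30 calls at 60 h became 19 without CBP 60 h library 2. The 3 calls at 0 h became 0 without any 1 of the 4 libraries at 0 h and 5 without either CBP 60 h library.

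The split of these calls moved with the scaling. Over all regions called, 73.5% were higher at 60 h in WT with median centring, 49.0% with quantile normalization and 38.0% with division by the background level. For CBP over time these were 71.6%, 46.2% and 13.0%, and for CBP against WT at 60 h 53.2%, 43.5% and 22.9%. The time change in CBP minus that in WT gave 46.5%, 37.4% and 10.2%, and CBP against WT at 0 h 10.6%, 16.0% and 23.7%. The median log2 change of all regions in CBP over time was 0.16 with median centring and -0.20 with division by the background level. Regions are therefore described as higher or lower below only where all 3 scalings passed in the same direction, a criterion added after the data were seen. Under it, WT over time had 7 higher (background 3.95%) and 5 lower (4.95%), CBP over time 5 higher (4.0%) and 17 lower (11.8%), CBP against WT at 0 h 1 higher (0.136%) and 0 lower (0.706%), and at 60 h 6 higher (4.56%) and 8 lower (9.25%). The time change in CBP minus that in WT had 0 higher (0.532%) and 0 lower (1.37%) by limma, with 16 of 121 at an unadjusted p under 0.05. Of the 32 regions within 1 kb of a gene end that were tested, 1 was higher in WT over time, 1 lower in CBP over time, 1 higher in CBP at 0 h, and 1 higher and 1 lower in CBP at 60 h. The other changes lay farther out. With the authors' fold in place of the pileup, 19 of the 49 calls under all 3 scalings passed in the same direction by limma, 3 of 12 in WT over time, 10 of 22 in CBP over time, 0 of 1 at 0 h and 6 of 14 at 60 h. The log2 change was smaller with the fold in 47 of the 49, and where a call was lost with it, the value is given below.

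**Figure D3:**
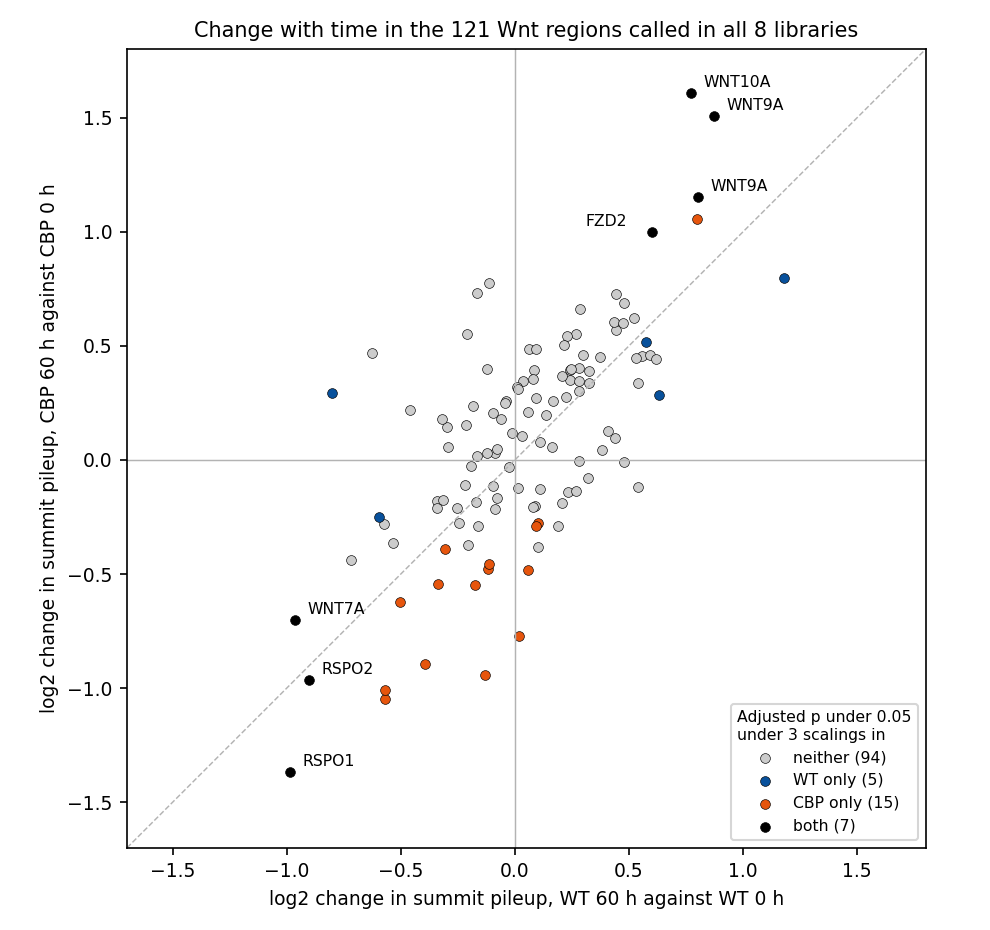
Log2 change in summit pileup with time in WT (horizontal axis) against that in CBP (vertical axis) for the 121 Wnt regions called in all 8 libraries, coloured by the label in which all 3 scalings passed. The 7 regions that passed in both labels (black, named by gene) lie at the upper right and lower left, and 5 passed in WT alone and 15 in CBP alone.

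Among the ligands, WNT10A held the most regions that differed in pileup. WNT10A encodes a ligand that acts through beta-catenin in skin and teeth, and lies 7845 bp from WNT6 on chromosome 15. A region 9428 bp outside the gene (120948460 to 120949632) had summit pileups of 123 and 122 in WT 0 h, 68 and 59 in WT 60 h, 103 and 84 in CBP 0 h, and 32 and 26 in CBP 60 h. Relative to the library medians it stood alike at both times in WT and lowest in both CBP 60 h libraries, without overlap. Its log2 change was -1.09 ± 0.13 (SE) for CBP against WT at 60 h (limma, adjusted p = 2.19e-07) and -0.77 ± 0.13 for CBP over time (adjusted p = 1.42e-05). Both calls held with each library left out in turn, but with the authors' fold the change over time was -0.34 (adjusted p = 0.101) and the difference at 60 h -0.64 (adjusted p = 0.0313).

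A WNT10A region on the side of WNT6, 1222 bp from the gene (120922211 to 120923982), went the other way. Its pileups were 25 and 33 in WT 0 h, 33 and 19 in WT 60 h, 32 and 22 in CBP 0 h, and 39 and 47 in CBP 60 h. Against library medians at 60 h of 30 to 35, both CBP 60 h libraries were the highest. The log2 change was 1.61 ± 0.22 for CBP over time (limma, adjusted p = 8.58e-07), 0.77 ± 0.22 for WT over time (adjusted p = 0.0067) and 0.81 ± 0.22 for CBP against WT at 60 h (adjusted p = 0.00604). The WT change was lost without WT 0 h library 1 or WT 60 h library 1, with an adjusted p up to 0.144, and with the authors' fold (0.32, adjusted p = 0.187), and the 60 h difference without WT 60 h library 2 or CBP 60 h library 2, up to 0.119. The region beside it (120921421 to 120921920, 290 bp away) was called with pileups of 24 and 27 in CBP 60 h and not called in WT 60 h. It was also called in every library at 0 h. Its pileups there were 0.43 and 0.54 of the library median in WT and 0.65 and 0.58 in CBP. The call was thus lost in WT at 60 h and kept in CBP.

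Further regions beyond the far end of WNT10A also differed. The region 2722 bp out (120941754 to 120942632) had pileups of 40 and 43 in WT 0 h and 49 and 47 in WT 60 h. After median centring this is 1.18 ± 0.17 higher on the log2 scale (limma, adjusted p = 1.25e-05, held with each library left out). Relative to the library medians it also rose in CBP, from a mean log2 of -0.53 at 0 h to 0.27 at 60 h. The CBP change did not pass under all 3 scalings. The adjoining region 3753 bp out (120942785 to 120943784) had pileups of 56 and 47 in WT 60 h and 32 and 34 in CBP 60 h, a log2 difference of -0.60 ± 0.15 (limma, adjusted p = 0.00326), which held with each library left out and was lost with the authors' fold (-0.28, adjusted p = 0.258). A further region 13021 bp out was lower in WT over time, by -0.60 ± 0.16 (adjusted p = 0.00588), a call lost without WT 0 h library 1 or WT 60 h library 2 (up to 0.0868) or with the authors' fold (-0.38, adjusted p = 0.0993). WNT6, the neighbouring ligand, had a region 2417 bp from its end (120898809 to 120899054) called with pileups of 23 and 25 in CBP 60 h and in no other library.

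**Figure D4:**
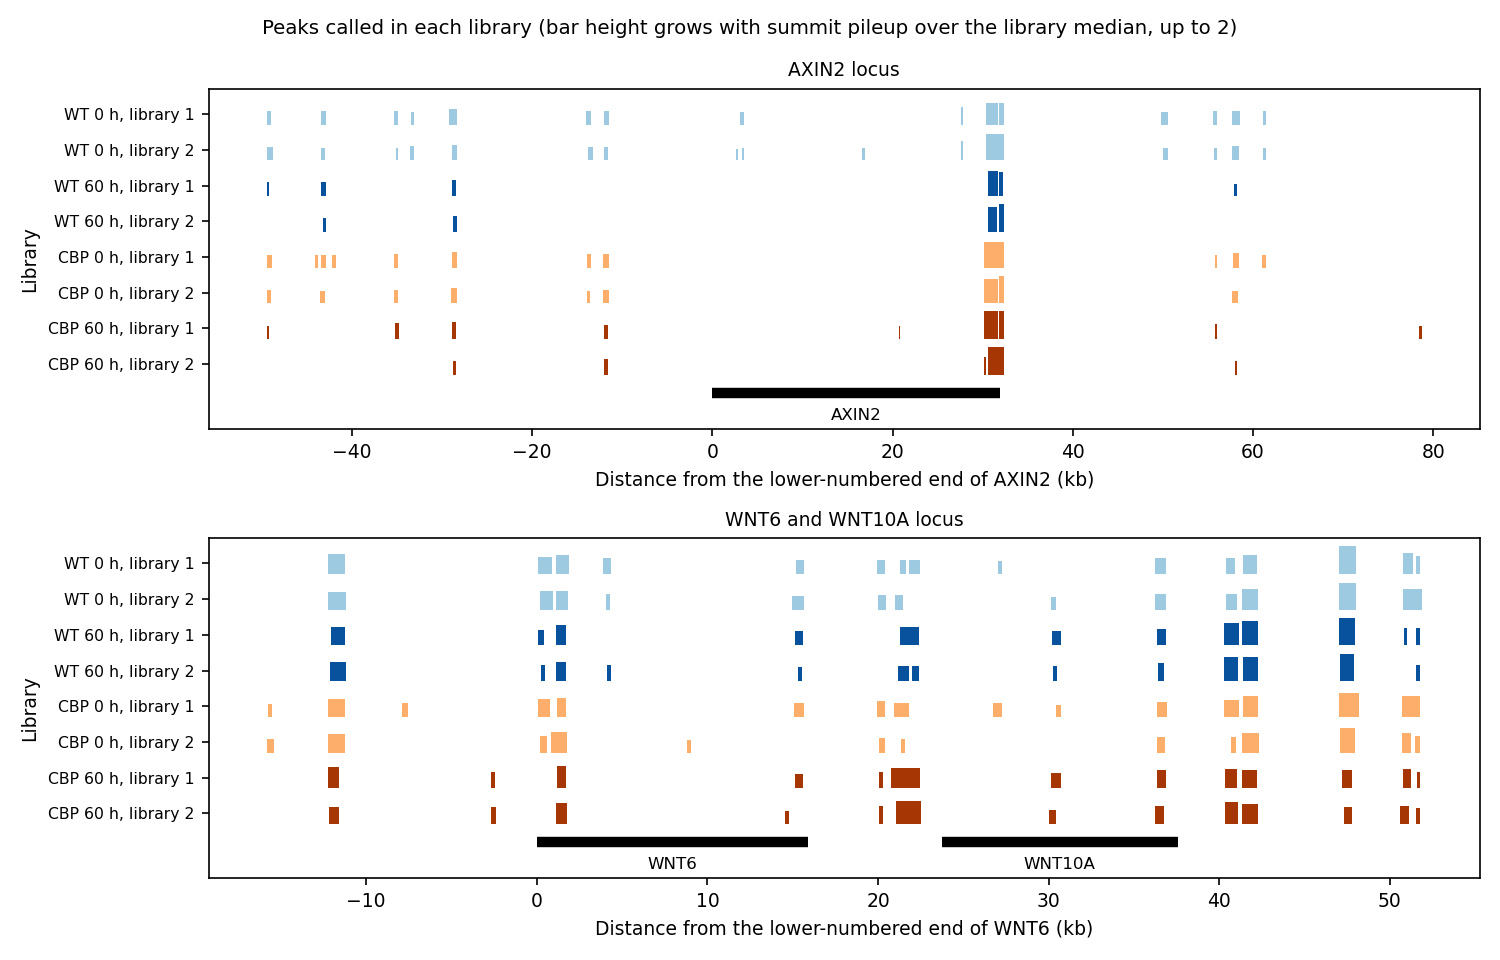
Peaks called in each of the 8 libraries (rows) across the AXIN2 locus and the WNT6 and WNT10A locus, by distance in kb from a gene end (horizontal axis). Bar height grows with the summit pileup over the library median, and black bars are the genes. At AXIN2 the tall peak at the right end of the gene is present in all rows, while WT 60 h has 5 and 3 of the 17 linked regions called against 13 and 14 in WT 0 h.

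WNT9A, a ligand of joint and blood stem cell development, had 18 regions on chromosome 2. The region 32914 bp from the gene (51068716 to 51069843) had pileups of 30 and 39 in WT 0 h, 33 and 31 in WT 60 h, 23 and 14 in CBP 0 h, and 26 and 28 in CBP 60 h. In WT the pileups at 60 h lay within the range of those at 0 h, and in CBP both at 60 h lay above both at 0 h, although the library medians at 60 h were lower. The log2 change over time was 0.87 ± 0.22 in WT (limma, adjusted p = 0.0024, 0.0579 without WT 0 h library 1, and 0.21 with 0.259 with the authors' fold) and 1.51 ± 0.22 in CBP (adjusted p = 2.10e-06). An intragenic region (51111330 to 51112464) was higher over time by 0.80 ± 0.18 in WT (adjusted p = 0.00108) and 1.15 ± 0.18 in CBP (adjusted p = 7.96e-06), each with every library left out. The WT change was lost with the authors' fold (0.44, adjusted p = 0.0736).

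Calls at WNT9A went against CBP. A region 5829 bp from the gene, on the side of WNT3A (51134175 to 51134581), had pileups of 26 and 30 in WT 0 h and 15 and 15 in WT 60 h, and was called in no CBP library. It is among the 2 regions called in every WT library and no CBP library, a count that was 0 at equal peak numbers and 0 when the authors' -log10 q had to reach 5. A region inside the gene (51120741 to 51121614) had pileups of 35 and 39 in WT 60 h and no call in CBP 60 h, also at equal peak numbers. Near its end, the region at 51126034 to 51127622 had pileups of 86 and 84 in WT 60 h and 66 and 67 in CBP 60 h. It was lower in CBP by -0.31 ± 0.10 (limma, adjusted p = 0.0281). That call was lost without WT 60 h library 2 or either CBP 60 h library, or with the authors' fold (-0.37, adjusted p = 0.133). The region across the gene end (51127820 to 51129221) went the other way. Its log2 pileup relative to the library median was 0.92 and 0.87 in WT 60 h and 1.29 and 1.20 in CBP 60 h. That difference did not pass under every scaling.

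WNT2B, which overlaps ST7L on chromosome 4, holds the other such region (107916288 to 107916779), with pileups of 32 and 33 in WT 0 h and 18 and 16 in WT 60 h. A WNT2B region 18463 bp from the gene and inside ST7L (107886474 to 107887678) had pileups of 43 and 32 in WT 60 h and 18 and 29 in CBP 60 h. It was lower in CBP over time by -0.94 ± 0.18 (limma, adjusted p = 5.85e-05, held with each library left out). Its difference at 60 h, -0.66 ± 0.18 (adjusted p = 0.00617), was lost without WT 60 h library 1 or CBP 60 h library 1 (up to 0.232) or with the authors' fold (-0.27, adjusted p = 0.271). A region 1015 bp from WNT2B (107904143 to 107905126) was lower in CBP over time by -0.54 ± 0.15 (adjusted p = 0.00389), lost without CBP 0 h library 1 or CBP 60 h library 2 (up to 0.164) or with the authors' fold (-0.04, adjusted p = 0.87).

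WNT7A, the ligand named above for satellite cells, had 20 regions on chromosome 13. Over time, 3 closed and 0 opened in WT and 4 closed and 0 opened in CBP, while 14.3% and 14.5% of all linked regions closed. At equal peak numbers, 2 WNT7A regions closed and 1 opened in WT, and 3 closed and 0 opened in CBP. An intragenic region (70584368 to 70586036) had pileups of 45 and 57 in WT 0 h, 16 and 11 in WT 60 h, 60 and 40 in CBP 0 h, and 17 and 15 in CBP 60 h. All 4 libraries at 60 h were the lowest, also relative to their medians. It was lower over time by -0.96 ± 0.22 in WT (limma, adjusted p = 0.000947) and -0.70 ± 0.22 in CBP (adjusted p = 0.00862, 0.104 without CBP 0 h library 1). In CBP, 3 other WNT7A regions were also lower, from -0.45 ± 0.12 to -1.01 ± 0.22 (adjusted p = 0.000421 for the latter, at 70546197 to 70547432), and that at 70521041 to 70522534 was lost without either CBP 0 h library or CBP 60 h library 2 (up to 0.44). All 3 were lost with the authors' fold, from -0.08 to -0.41 (adjusted p = 0.0863 for that at 70546197). The region at the end of the gene (70538046 to 70539984) had pileups of 76 and 73 in WT 0 h, 32 and 36 in WT 60 h, 85 and 72 in CBP 0 h, and 43 and 41 in CBP 60 h, and passed in no comparison.

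WNT7B, a close relative of WNT7A on chromosome 5, had 4 closed regions of 22 in WT and 2 in CBP over time. At equal peak numbers WNT7B had 1 closed in WT and 0 in CBP. Its intragenic region at 3529243 to 3530159 had pileups of 85 and 58 in CBP 0 h and 20 and 20 in CBP 60 h, lower by -0.89 ± 0.18 (limma, adjusted p = 0.000175). At its end (3572437 to 3573865), pileups were 38 and 58 in WT 0 h and 77 and 66 in CBP 0 h, the only Wnt region that differed between the labels at 0 h under all 3 scalings, by 0.70 ± 0.19 (adjusted p = 0.0463). That call was lost whichever of the 4 libraries at 0 h was left out, with an adjusted p up to 0.789, and with the authors' fold (0.44, adjusted p = 0.609). A further intragenic region (3560521 to 3561651) was lower in CBP over time by -0.27 ± 0.11 (adjusted p = 0.0498), lost in 6 of the 8 fits that left a library out (up to 0.3) and with the authors' fold (-0.05, adjusted p = 0.694).

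The other ligands differed in few places. WNT11, a ligand of beta-catenin-independent signalling, had 3 of 15 regions closed in WT and 1 in CBP over time. At equal peak numbers WNT11 had 1 opened and 0 closed under each label. Its region 41258 bp out on chromosome 9 (10476416 to 10477290) had pileups of 21 and 22 in WT 60 h and 36 and 37 in CBP 60 h, higher in CBP by 0.80 ± 0.19 (limma, adjusted p = 0.0023), which held with each library left out and was lost with the authors' fold (0.44, adjusted p = 0.0655). WNT4 had 1 region opened and 3 closed of 14 in CBP over time, and its intragenic region at 80125867 to 80128606 on chromosome 6 was lower by -0.48 ± 0.14 (adjusted p = 0.00653, 0.0939 without CBP 0 h library 2, and -0.30 with 0.161 with the authors' fold). WNT5B and WNT16 each had a region called only in CBP 60 h, with pileups of 11 and 13 at WNT5B (chromosome 5, 68735714 to 68736122) and 16 and 12 at WNT16 (chromosome 18, 25640932 to 25641799). WNT10B, which overlaps WNT1 on chromosome 5, had 2 regions, and the 1 tested was lower in CBP at 60 h by -0.50 ± 0.15 (adjusted p = 0.0173), lost without WT 60 h library 2 or CBP 60 h library 1 (up to 0.115). At WNT1, with 4 regions, a region inside WNT10B (15003118 to 15006208) was lower in CBP over time by -0.29 ± 0.12 (adjusted p = 0.0449), lost in 5 of the 8 fits that left a library out (up to 0.393), and with the authors' fold its direction turned (0.11, adjusted p = 0.608). WNT8A had a single region, called in 4 libraries, and WNT8B had 2. WNT2, WNT3, WNT3A, WNT5A and WNT9B had 4, 11, 9, 7 and 9 regions, with at most 2 closed in a comparison.

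Among the receptors, FZD2 had regions that stood higher over the library median at 60 h than at 0 h. Its region 19830 bp out on chromosome 12 (18718549 to 18720587) had pileups of 67 and 91 in WT 0 h, 68 and 54 in WT 60 h, 55 and 47 in CBP 0 h, and 50 and 58 in CBP 60 h. The CBP libraries did not separate by time in raw pileup, while their medians fell to 32 and 31. After median centring it was higher over time by 0.60 ± 0.14 in WT (limma, adjusted p = 0.00141, 0.0689 without WT 0 h library 1) and 1.00 ± 0.14 in CBP (adjusted p = 1.61e-06), and lost both calls with the authors' fold, at 0.26 (adjusted p = 0.24) and 0.37 (adjusted p = 0.0875). Another FZD2 region (18756892 to 18757563) was higher in CBP by 1.06 ± 0.24 (adjusted p = 0.000674).

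In calls, FZD2 was the only receptor with more closed than opened regions in CBP at 60 h. The region at 18706844 to 18707315 was called only in WT 60 h, with pileups of 34 and 27, and is closed in CBP against WT at 60 h also at equal peak numbers. The neighbouring region 35440 bp out (18703591 to 18704977) had pileups of 84 and 64 in WT 60 h and 50 and 54 in CBP 60 h, lower in CBP by -0.46 ± 0.12 (limma, adjusted p = 0.0042, 0.0596 without WT 60 h library 1, and -0.15 with 0.479 with the authors' fold). The FZD2 gene end (18741930 to 18743958) had pileups of 107 and 110, 86 and 69, 109 and 89, and 81 and 77 in WT 0 h, WT 60 h, CBP 0 h and CBP 60 h, and did not pass under all 3 scalings over time in either label.

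FZD9 opened 2 regions in WT over time, more than any other member. FZD9 is known from bone and neural tissue and overlaps BAZ1B on chromosome 3. Its opened regions at 10740705 to 10741163 and 10764530 to 10764967 had pileups of 16 and 12 and of 24 and 24 in WT 60 h, were called in CBP 60 h library 2 with 11 and 20, and in no library at 0 h. A region 31968 bp from FZD9, inside BAZ1B (10794780 to 10796028), had pileups of 55 and 60 in WT 0 h, 23 and 17 in WT 60 h, 45 and 41 in CBP 0 h, and 11 and 11 in CBP 60 h. CBP 60 h was lowest without overlap. It was lower by -1.05 ± 0.21 in CBP over time (limma, adjusted p = 0.000169) and by -0.81 ± 0.21 in CBP against WT at 60 h (adjusted p = 0.00584), each with every library left out.

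FZD5 had the closed receptor region with the highest pileup in WT. It lay 947 bp from the gene on chromosome 15 (110922335 to 110922895) and 184 bp from another region, with pileups of 80 and 86 in WT 0 h, no call in WT 60 h, 89 and 78 in CBP 0 h, and 48 and 51 in CBP 60 h. FZD10 had 2 opened regions and 1 closed region between the labels at 60 h, and a region 36511 bp out was higher in WT over time by 0.63 ± 0.17 (limma, adjusted p = 0.00466), lost without WT 0 h library 2 or WT 60 h library 2 (up to 0.136) or with the authors' fold (0.37, adjusted p = 0.083). The gene ends of FZD7 and FZD8 and the region inside FZD1 were higher over time under both labels with median centring, but none did so under all 3 scalings. FZD3, FZD4, FZD6 and FZD7 had 4, 10, 6 and 6 regions, with at most 2 closed in a comparison.

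The co-receptors lost calls over time under both labels, in WT near the share of all linked regions. LRP5 had 4 of 21 regions closed in each label and LRP6 2 of 15 in WT and 4 in CBP. Of their 36 regions, this was 16.7% in WT (against 14.3% of all linked regions) and 22.2% in CBP (against 14.5%). At equal peak numbers the 2 genes had 1 opened and 3 closed in WT, and 2 opened and 3 closed in CBP. The strongest at LRP5 was an intragenic region on chromosome 2 (4602855 to 4604075), with pileups of 76 and 94 in WT 0 h and 74 and 56 in CBP 0 h and no call in any library at 60 h, also at equal peak numbers. Another intragenic region (4647618 to 4648658) had pileups of 62 and 73 in WT 0 h, 28 and 21 in WT 60 h, 81 and 62 in CBP 0 h, and 27 and 22 in CBP 60 h, lower in CBP over time by -0.62 ± 0.17 (limma, adjusted p = 0.00372), which held with each library left out and was lost with the authors' fold (-0.35, adjusted p = 0.0753). The LRP5 gene end (4533029 to 4533874) was lower in CBP over time by -0.39 ± 0.16 (adjusted p = 0.0421), lost in 6 of the 8 fits that left a library out (up to 0.178) and with the authors' fold (-0.34, adjusted p = 0.18). An intragenic region 1845 bp from the other end (4650808 to 4652152) was lower in CBP at 60 h by -0.63 ± 0.18 (adjusted p = 0.00874, 0.0613 without WT 60 h library 1, and -0.48 with 0.0646 with the authors' fold).

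At LRP6 on chromosome 5, the region across the gene end (60148401 to 60150417) had pileups of 127 and 135, 88 and 75, 135 and 110, and 88 and 72 in WT 0 h, WT 60 h, CBP 0 h and CBP 60 h. A narrow region 178 bp beside it (60147977 to 60148222) had pileups of 54 and 56 in WT 0 h and 68 and 54 in CBP 0 h and no call at 60 h. Of the 418 Wnt regions, 105 (25.1%) lay within 500 bp of another, against 22.2% of all linked regions, and the part of the edges of wide peaks in such calls was not tested. A region 41619 bp inside LRP6 (60275845 to 60277100) was lower in CBP over time by -0.55 ± 0.16 (limma, adjusted p = 0.0065, 0.0798 without CBP 0 h library 2). Over all closed regions LRP6 reversed at equal peak numbers, with 2 opened and 1 closed in CBP.

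Among the secreted antagonists, SFRP1, which binds WNT ligands, had an intragenic region that differed by label at 60 h. This region on chromosome 17 (10453077 to 10454594) had pileups of 43 and 65 in WT 0 h, 15 and 16 in WT 60 h, 64 and 38 in CBP 0 h, and 32 and 32 in CBP 60 h. Relative to the medians the WT 60 h libraries were the lowest 2 of the 8, and the CBP 60 h libraries did not overlap with them. It was higher in CBP at 60 h by 1.09 ± 0.20 (limma, adjusted p = 0.000185, held with each library left out). In WT over time it was lower by -0.80 ± 0.20 (adjusted p = 0.00291, 0.125 without WT 0 h library 2). A neighbouring region (10450107 to 10450721) went against it in calls, with pileups of 13 and 15 in WT 60 h and no call in CBP 60 h.

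DKK3 and DKK2 also each had a region higher in CBP at 60 h. DKK3 is a divergent member of the DKK family. Its intragenic region on chromosome 2 (47432958 to 47433755) had pileups of 21 and 18 in WT 60 h and 33 and 34 in CBP 60 h, a log2 difference of 0.83 ± 0.19 (limma, adjusted p = 0.00183, held with each library left out). Another DKK3 region (47399327 to 47399712) was called only in WT 60 h, with pileups of 16 and 10. The DKK2 region 42129 bp inside the gene on chromosome 8 (114904185 to 114905820) had pileups of 14 and 11 in WT 60 h and 21 and 25 in CBP 60 h, a difference of 0.93 ± 0.24 (adjusted p = 0.00425, 0.0539 without CBP 60 h library 2, and 0.57 with 0.0564 with the authors' fold). Both genes had 4 closed regions in CBP over time, of 17 at DKK2 and 19 at DKK3, while 14.5% of all linked regions closed. At equal peak numbers, 2 closed at DKK2 and 1 at DKK3.

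SFRP2 was the only member with a region at a gene end that was higher in WT over time under all 3 scalings. That region on chromosome 8 (75336653 to 75337951) had pileups of 62 and 84 in WT 0 h and 56 and 54 in WT 60 h, higher by 0.58 ± 0.14 after median centring (limma, adjusted p = 0.00156, 0.071 without WT 0 h library 1, and 0.35 with 0.122 with the authors' fold). DKK1 had 8 regions with 1 closed over time in each label. SFRP4 had a single region, at its end on chromosome 9, called in all 8 libraries.

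The R-spondins had the lowest share of regions called at 60 h in WT after AXIN2, 33.3% and 30.6%, against 48.4% and 46.2% of all linked regions. They also had the lowest share in WT 0 h, 58.3% in each library, against 69.8% and 73.8%. In CBP 60 h they had 38.9% and 41.7%, against 48.4% and 47.8%. RSPO1 had the largest fall of any Wnt region tested. Its region 20356 bp from the gene on chromosome 6 (93710684 to 93711794) had pileups of 68 and 75 in WT 0 h, 17 and 20 in WT 60 h, 88 and 68 in CBP 0 h, and 21 and 12 in CBP 60 h. The times did not overlap in either label. It was lower over time by -0.99 ± 0.21 in WT (limma, adjusted p = 0.000589) and -1.37 ± 0.21 in CBP (adjusted p = 5.26e-06), each with every library left out. The WT call was lost with the authors' fold (-0.54, adjusted p = 0.0911).

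At RSPO2, the region over the gene end on chromosome 4 (29414362 to 29416236) had pileups of 52 and 61 in WT 0 h, 23 and 19 in WT 60 h, 74 and 49 in CBP 0 h, and 46 and 30 in CBP 60 h. The CBP 60 h libraries were above both WT 60 h libraries, by 0.87 ± 0.18 (limma, adjusted p = 0.00076), which held with each library left out and was lost with the authors' fold (0.40, adjusted p = 0.123). It was the only region at a gene end that was higher in CBP at 60 h under all 3 scalings. An intragenic RSPO2 region (29426699 to 29427563) was lower over time by -0.90 ± 0.25 in WT (adjusted p = 0.00615, up to 0.181 without WT 0 h library 2 or WT 60 h library 1) and -0.97 ± 0.25 in CBP (adjusted p = 0.00214, up to 0.057 without CBP 0 h library 2 or CBP 60 h library 1), and both were lost with the authors' fold (-0.62, adjusted p = 0.09, and -0.63, adjusted p = 0.0672).

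RSPO3 had no region called in all 8 libraries, and it had the most regions of the set that opened or closed in CBP over time and between the labels at 60 h. In CBP over time 6 of its 18 regions closed and 0 opened, while 14.5% of all linked regions closed. At equal peak numbers, 2 closed and 2 opened in CBP over time. Against WT 60 h, 2 opened and 2 closed in CBP 60 h. On chromosome 1, the region 3435 bp from the gene (36069867 to 36070394) had pileups of 55 and 65 in WT 0 h, 21 and 22 in WT 60 h, 56 and 45 in CBP 0 h, and no call in CBP 60 h. The region 187 bp from the same end (36066619 to 36067951) had no call in WT 60 h and pileups of 33 and 35 in CBP 60 h, and was called with 48 in WT 0 h library 2 and with 56 and 36 in CBP 0 h. All 4 RSPO3 regions that differed at 60 h also did so at equal peak numbers.

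AXIN2 had the most closed regions of the set in WT. On chromosome 12, 8 of its 17 regions closed in WT over time and 2 in CBP, and 3 closed in CBP against WT at 0 h. The number called was 13 and 14 in WT 0 h, 5 and 3 in WT 60 h, 12 and 8 in CBP 0 h, and 7 and 4 in CBP 60 h. At equal peak numbers the closed counts were 2 in WT, 0 in CBP and 0 between the labels at 0 h. The 2 regions that closed in WT under both settings lay 13258 and 11442 bp from the gene. The first (12297254 to 12298035) had pileups of 25 and 25 in WT 0 h and 28 and 16 in CBP 0 h and no call at 60 h. The other (12299146 to 12299851) had pileups of 24 and 25 in WT 0 h, 29 and 23 in CBP 0 h and 14 and 19 in CBP 60 h, with no call in WT 60 h. All 8 had pileups of 15 to 33 in WT 0 h, well under the library medians, and 3 lay inside CEP112, which overlaps AXIN2. The region at the AXIN2 end (12341407 to 12343646) was called in all 8 libraries, with pileups of 80 and 121 in WT 0 h, 59 and 60 in WT 60 h, 120 and 102 in CBP 0 h, and 79 and 75 in CBP 60 h. Its difference between the labels at 60 h was 0.41 ± 0.12 after median centring (limma, adjusted p = 0.0152) and did not pass under all 3 scalings.

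**Figure D5:**
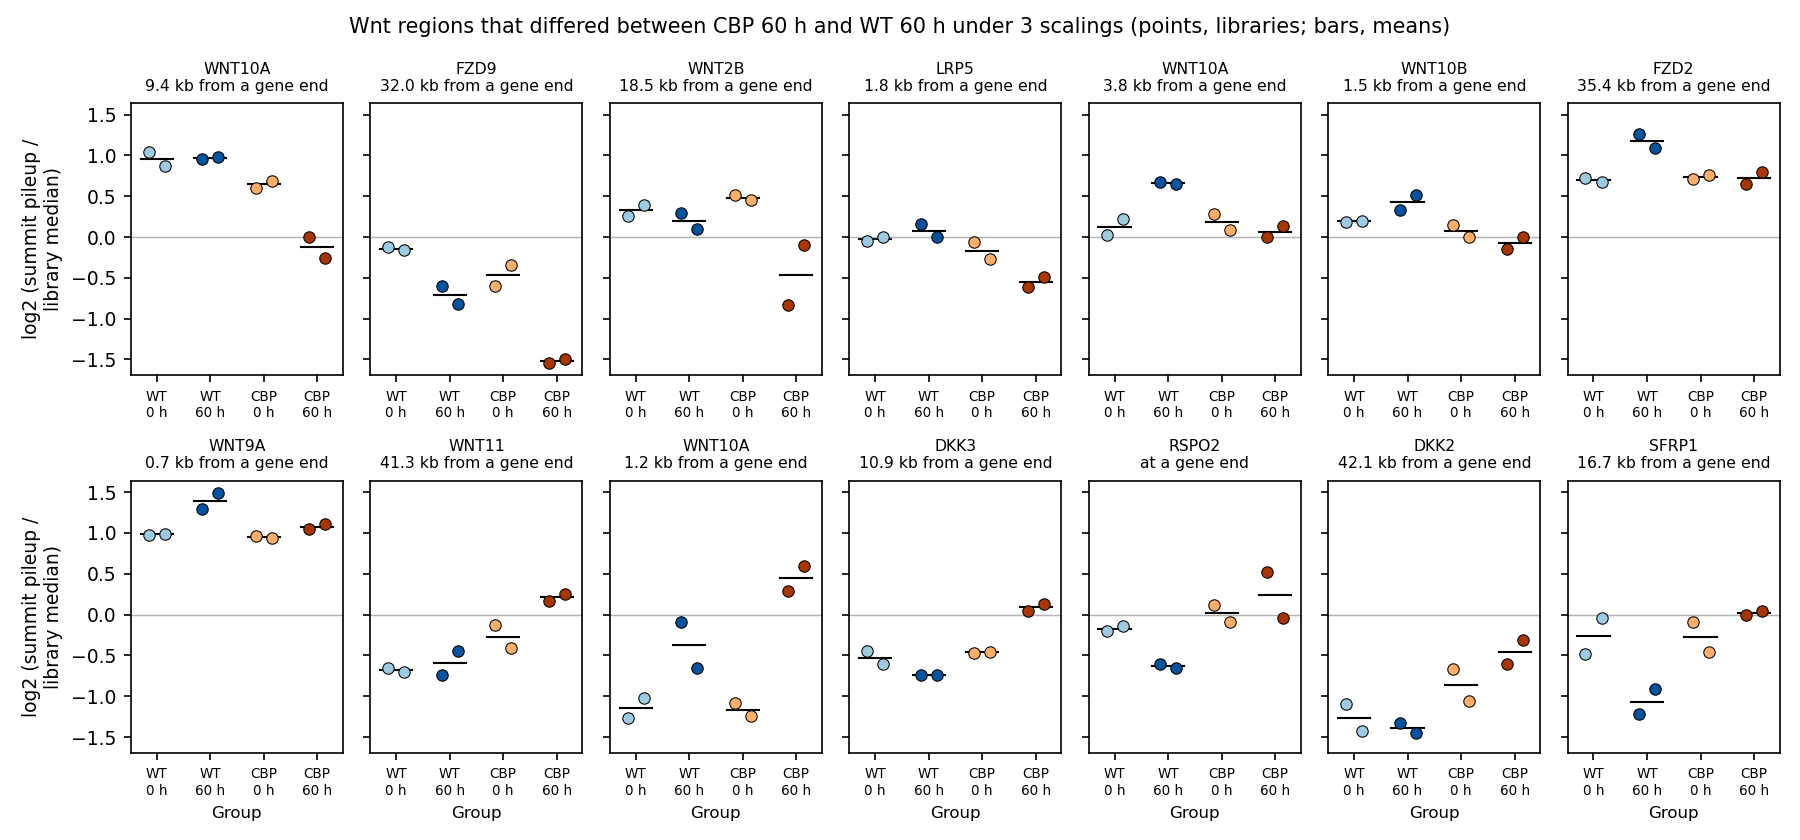
Summit pileup over the library median (vertical axis, log2) in each library (points) and group mean (bars) for the 14 Wnt regions that differed between CBP 60 h and WT 60 h under all 3 scalings, ordered by the difference from -1.09 to 1.09. The regions were chosen by this comparison, so the gap between CBP 60 h and WT 60 h in each panel follows from the choice.

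The time change differed between the labels in 3 Wnt regions with median centring, and in none under all 3 scalings. These were the WNT10A region 9428 bp out (-0.79 ± 0.18, limma, adjusted p = 0.0112), the SFRP1 intragenic region (1.10 ± 0.29, adjusted p = 0.0257) and a WNT5B intragenic region on chromosome 5 at 68721177 to 68721967 (1.10 ± 0.33, adjusted p = 0.0498). The WNT5B region had pileups of 38 and 37 in WT 0 h, 14 and 11 in WT 60 h, 35 and 22 in CBP 0 h, and 23 and 18 in CBP 60 h. The count was 0 without WT 0 h library 2 or CBP 0 h library 2, 1 without CBP 0 h library 1 and 6 without CBP 60 h library 2.

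Other genes of the pathway were counted from a fixed list of 79, of which 74 were matched and had 810 linked regions. In WT over time 4 of these regions opened (0.494%) and 125 closed (15.4%), and in CBP 14 (1.73%) and 130 (16.0%), near the shares of all linked regions given above. At equal peak numbers these were 25 and 26 in WT and 39 and 44 in CBP. Between the labels at 0 h, 19 opened (2.35%, against 2.23% of all linked regions) and 30 closed (3.70%, against 3.35%). At 60 h, 27 opened (3.33%, against 3.14%) and 39 closed (4.81%, against 3.17%). At equal peak numbers these were 13 and 20 at 0 h and 23 and 41 at 60 h. Of the 236 called in all 8 libraries, 12 were higher (5.08%) and 10 lower (4.24%) in WT over time under all 3 scalings by limma, 7 (2.97%) and 20 (8.47%) in CBP over time, and 9 (3.81%) and 20 (8.47%) in CBP at 60 h. At 0 h, 0 were higher and 0 lower in CBP by limma, with 1 called with median centring alone and 25 at an unadjusted p under 0.05. In CBP over time, the most closed regions were at TLE3, a co-repressor of TCF factors, with 8 of 30, and at TCF7L2, a TCF factor that beta-catenin binds, with 7 of 32. In WT, TLE3 had 1 opened and 4 closed, and TCF7L2 shared the most closed regions, 5, with GPC4 and TNFRSF19. At equal peak numbers TLE3 had 4 opened and 0 closed in WT and 0 of either in CBP, and TCF7L2 0 of either in WT and 3 opened and 2 closed in CBP. LGR4, an R-spondin receptor, had 2 opened and 5 closed of 16 in CBP over time, and 2 and 2 at equal peak numbers.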

How the data were processed

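ATAC-seq was run on 8 libraries in 4 groups of 2. Per the submitters' processing notes, the authors used Trimmomatic and MACS2 2.1.0 with the build Sscrofa11.1. Not given in the sources used here are the aligner, whether duplicate or mitochondrial reads were removed, and whether reads were shifted to the transposase cut, and each can move the number and edges of peaks. Each deposited list gives, per peak called in a single library, the authors' score, their fold enrichment at the summit (a ratio to local background) and the authors' -log10 p and -log10 q values. The lowest -log10 q was 1.30 to 1.34 per library.

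Merging used the peaks of chromosomes 1 to 18 and X, and regions were linked to gene ends in the RefSeq table of Sscrofa11.1. Members and gene lists were chosen with earlier results of these data known. Equal peak numbers keep the 82696 peaks with the highest -log10 p in each library. The summit pileup is the whole number that gives both the deposited fold and the deposited -log10 p of a peak as a Poisson test, assuming a pseudocount of 1 in that fold, which the sources used here do not give, and was recovered within 0.01 for 100% of peaks. Its log2 was centred on the library median and fitted with limma 3.58.1 (trend, 4 group means, all 8 libraries) in R 4.3.3, with Benjamini-Hochberg adjustment over 50575 regions and a threshold of 0.05. The steps were tested on simulated data.

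Named with values were members among those with the most opened and closed regions per comparison. Of the regions called throughout a time or label and nowhere else, and of tested regions past the threshold with median centring, only a part was named. Regions that passed under all 3 scalings were named as well, a criterion chosen after seeing the data. Alternatives were quantile normalization, division by the background level, the authors' fold, -log10 q of at least 5, peaks covering at least 50% of a region, equal peak numbers, links within 10 kb, the replicate block, each library left out and, added after seeing the data, regions over 500 bp from the next and the joint criterion. Same-numbered libraries deviated with correlations of -0.0412 to 0.0489, so the numbers did not pair them. Promoter sequences and motifs were not analysed here. The result of 1 further marker list is not reported here. Counts of calls have no test, and 2 libraries per group limit the precision of every value.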

Additional observations from a re-analysis of the deposited data

Results flagged for a closer look

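The change with time differed between the labels in 3 of the 121 Wnt regions, by a test of the difference itself in limma, which is what set them apart. These are 1.65% higher and 0.826% lower, against 1.69% and 1.95% of all tested regions. The WNT10A region 9428 bp from the gene on chromosome 15 had -0.79 on the log2 scale, with 0.02 in WT over time and -0.77 in CBP. The SFRP1 intragenic region on chromosome 17 had 1.10, with -0.80 in WT and 0.29 in CBP. The WNT5B intragenic region on chromosome 5 had 1.10, with -0.63 in WT and 0.47 in CBP. None of the 3 passed under all 3 scalings. The WNT10A call was lost in 4 of the other settings, the SFRP1 call in 7 and the WNT5B call in 9. Their causes were not tested.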

How the results depend on the processing

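With 2 libraries per group, and 0 h libraries deeper than 60 h libraries, the counts of opened and closed regions moved with the number of peaks. At equal peak numbers, WT over time had 22 opened and 16 closed, CBP over time 21 and 22, and CBP against WT at 0 h 4 closed, while 5 regions were called at 60 h alone, 7 at 0 h alone, 2 in CBP alone and 0 in WT alone. The balance of opened and closed regions turned from -3 to 1 at WNT11 in WT and from -4 to 1 at LRP6 in CBP. With -log10 q of at least 5, WT and CBP over time each had 2 opened, 1 region was called in CBP alone and 0 in WT alone, and pileup calls numbered 21 in WT over time, 17 at 60 h between the labels and 1 for the difference of time changes. With peaks covering at least 50% of a region, 22 opened in CBP at 0 h, 32 were called at 0 h alone, 3 in CBP alone and 0 in WT alone. Links within 10 kb, which hold fewer regions, gave 1 opened and 24 closed in WT, 20 closed in CBP, 5 opened and 9 closed at 0 h, 11 opened and 6 closed at 60 h, and 5 called at 0 h alone. Regions over 500 bp from the next gave 7 opened in CBP at 0 h.

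For the pileup calls, quantile normalization gave 17 in WT over time and 0 for the difference of time changes, and division by the background level gave 5 for the latter. The authors' fold gave 14 in WT and 19 in CBP over time, 0 at 0 h, 7 at 60 h and 0 for the difference, and the FZD2 region 19830 bp out turned from -0.53 to 0.0292 (log2) at 0 h between the labels. All 3 scalings in the same direction gave 12 in WT and 22 in CBP over time, 1 at 0 h, 14 at 60 h and 0 for the difference. The replicate block, for numbers that did not pair the libraries, gave 5 at 0 h and moved no other count by over 1.5 times. Leaving out a library gave 6 to 12 opened and 77 to 105 closed in WT over time, 7 to 15 and 69 to 101 in CBP over time, 21 to 38 and 23 to 44 at 0 h, and 27 to 42 and 19 to 30 at 60 h. Pileup calls then numbered 14 to 43 in WT and 34 to 55 in CBP over time, 0 to 5 at 0 h, 19 to 28 at 60 h and 0 to 6 for the difference. Beyond fewer regions or libraries by construction, the cause was not tested.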
